A study of Mus musculus with 46 samples.

Results

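The 7 wild-type (WT) inner cell mass (ICM) libraries of this mouse series differed in the RNA of trophectoderm genes, and the genes that ran with or against that signal are described here. Each library holds the ICM of 1 blastocyst at embryonic day (E) 3.5. The libraries were put in order by log2(Krt8 FPKM + 1), where FPKM is fragments scaled by transcript length and by all mapped fragments, and Krt8 is a keratin of the trophectoderm. A gene whose mean reached 5 FPKM was said to follow the order where its Spearman rho with Krt8 over the 7 libraries was at least 0.78, and to oppose it where rho was at most -0.78. The genes were thus chosen by their measured rank over these 7 libraries. Of 3651 genes besides Krt8, 119 followed (3.26%) and 82 opposed (2.25%). Of all possible orders of 7 libraries, 2.40% pass this cut in a given direction. The share of followers was somewhat above that figure and the share of opposers slightly below it. Passing the cut therefore does not by itself show that a gene is tied to Krt8. Because the order comes from a measured gene in these same libraries, every rho among them is a description and carries no test.

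RNA makes up 33 of the 46 samples of the series. The 7 WT ICMs came from embryos with no injected reagent named in their labels, grown in KSOM medium, and the ICM was freed by immunosurgery. The 7 Rbbp5 knockout (KO) ICMs came from zygotes injected with Cas9 mRNA and guide RNA in a WT background, or with Cre mRNA in a flox/flox background. The labels do not say which route a KO library took, so the KO group may mix them. Rbbp5 is a shared subunit of the complexes that methylate histone H3 at lysine 4, and its own RNA was not analysed here. Hand-dissected E5.5 epiblasts of single embryos were read in 3 WT and 3 KO libraries. Single cells at E4.5 were 7 WT and 3 KO cells of the epiblast and, for primitive endoderm, 1 WT cell and 2 KO cells. No trophectoderm library was used here, so the signal has no reference tissue of its own.

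The trophectoderm is the outer epithelium of the blastocyst. Its cells polarise, hold YAP in the nucleus, where it works with TEAD4, and switch on Cdx2 and Gata3. They also build keratin filaments and tight junctions that seal the blastocoel. In immunosurgery an antibody and complement lyse this outer layer, and the ICM, which forms epiblast and primitive endoderm, is kept. In whole ICMs of this kind, more cells of a type and more RNA per cell cannot be told apart.

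In rising order the libraries were numbers 6, 7, 5, 3, 2, 4 and 1, and all values by library below are in that order. Krt8 was at 17.06, 17.14, 19.3, 29.8, 42.1, 64.5 and 239.9 FPKM. The 3 lowest libraries were close together and library 1 stood far above the rest. Gata3, a transcription factor of the trophectoderm, was at 16.2, 6.71, 1.47, 48.5, 11.2, 26.7 and 186.5 FPKM, with a rho of 0.61 with Krt8. Its highest library was also number 1, but library 3 came second and library 5 last. Cldn4, a claudin of the tight junction, was at 6.60, 5.20, 2.59, 15.2, 6.66, 27.6 and 88.1 FPKM, with a rho of 0.82. Libraries 1, 4 and 3 were the highest 3 for Cldn4, and library 2, the third highest for Krt8, lay among the low ones for Gata3 and Cldn4.

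**Figure D1:**
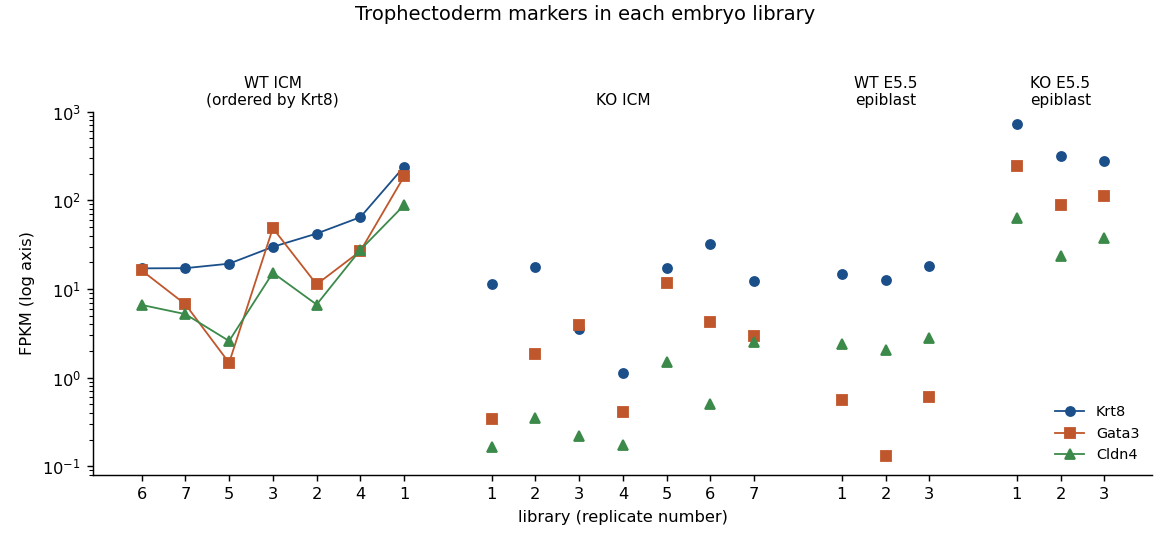
FPKM of Krt8, Gata3 and Cldn4 (log axis) in each embryo library, with WT ICM libraries in Krt8 order and joined by lines, and the KO ICM and E5.5 libraries by replicate number. In WT ICM all 3 markers peak in library 1, while Cldn4 in every KO ICM library lies below its lowest WT ICM value of 2.59 FPKM.

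The promoters of the ordering gene and of 3 trophectoderm genes whose libraries ranked high together are shown, since these genes' RNA rose toward the same libraries. Each is the 250 bases before the annotated start in RefSeq's GRCm38.p6, on the minus strand for all 4 genes, written 5′ to 3′. The Gata3 window lies inside the annotated span of that gene, chr2:9857078-9887953, so the start used for it is not the farthest upstream. Capitals mark matches on either strand to letters that transcription factors favour: GGAATG for the TEAD family, AGATAA for the factors of the Gata3 family, or GCCNNNGGC for the TFAP2 family. The regions are chr15:102004343-102004592 for Krt8, chr5:134946935-134947184 for Cldn4, chr12:25096093-25096342 for Id2 and chr2:9878601-9878850 for Gata3.
Krt8: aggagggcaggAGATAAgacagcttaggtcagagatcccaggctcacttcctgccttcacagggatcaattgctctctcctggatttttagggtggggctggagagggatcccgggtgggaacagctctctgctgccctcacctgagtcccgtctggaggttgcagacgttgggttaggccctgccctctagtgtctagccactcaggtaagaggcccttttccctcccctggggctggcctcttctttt
Cldn4: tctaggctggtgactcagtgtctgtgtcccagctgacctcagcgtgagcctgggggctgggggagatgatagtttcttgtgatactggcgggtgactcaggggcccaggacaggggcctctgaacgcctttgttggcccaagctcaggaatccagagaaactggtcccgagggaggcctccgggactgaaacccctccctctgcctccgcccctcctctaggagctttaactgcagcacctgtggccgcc
Id2: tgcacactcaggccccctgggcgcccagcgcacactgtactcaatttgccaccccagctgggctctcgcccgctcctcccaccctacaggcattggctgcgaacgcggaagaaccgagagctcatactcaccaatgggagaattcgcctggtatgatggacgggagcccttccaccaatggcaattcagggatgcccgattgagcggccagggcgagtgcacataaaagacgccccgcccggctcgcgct
Gata3: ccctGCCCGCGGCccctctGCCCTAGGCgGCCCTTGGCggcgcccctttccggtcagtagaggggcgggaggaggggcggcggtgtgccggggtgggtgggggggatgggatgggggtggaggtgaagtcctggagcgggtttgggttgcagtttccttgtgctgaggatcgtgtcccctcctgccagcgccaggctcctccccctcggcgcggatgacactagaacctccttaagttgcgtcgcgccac
Krt8 holds 1 AGATAA, from 239 to 234 bases before the start. Gata3 holds 3 copies of GCCNNNGGC that do not overlap, from 246 to 238, 231 to 223 and 221 to 213 bases before the start. The Cldn4 and Id2 windows hold none of the 3 letter strings. Of the 119 genes that followed, 97 had a promoter in the table, and 15.5% of these held GGAATG, against 7.58% of the 66 promoters of genes that opposed, 9.94% of the 2837 promoters of all genes past the 5 FPKM filter and 12.6% of all 27025 promoters. AGATAA stood in 6.19%, 10.6%, 5.46% and 10.3% of the same sets, and GCCNNNGGC in 12.4%, 19.7%, 19.4% and 13.6%. These are counts of letters in a window and not of bound sites.

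Of 69 trophectoderm genes listed besides Krt8, 43 were in the table and 29 reached a mean of 5 FPKM. Of these 29, 6 followed the Krt8 order (Id2, Cldn4, Cldn6, Cgn, Cdh1 and Slc9a3r1) and 0 opposed it. That is 20.7% of the 29, beside 3.26% of all genes. The count was 2 without library 1 (Id2 and Cdh1), beside 2.36% of all genes. It was 3 without library 4 (Id2, Cldn6 and Cdh1), beside 2.68%, and 3 without library 6 (Id2, Cldn4 and F11r), beside 4.11%. Without library 2 it was 8, beside 3.86%. Without library 3, 5 or 7 it was 6, beside 4.41%, 4.49% and 6.27%. A positive rho was found for 27 of the 29, with a median of 0.43 beside 0.07 over all 3651 genes. The exceptions were Gja1 (rho -0.57), a gap junction protein that the ICM also makes, and Sfn (rho -0.11), the epithelial 14-3-3 sigma. A place on the lists does not make a gene particular to trophectoderm. In WT E5.5 epiblasts Cldn6 was at 252 to 357 FPKM, Cdh1 at 47.5 to 67.9 and Slc9a3r1 at 89.4 to 121. Their highest WT ICM values were 164, 39.1 and 15.3 FPKM. For Id2, Cldn4 and Cgn no WT E5.5 epiblast was above the highest WT ICM.

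Among the transcription factors, 1 of 5 followed and the median rho was 0.50. Id2, an inhibitor of basic helix-loop-helix factors and an early trophectoderm marker, was at 1.86, 2.41, 11.1, 94.6, 6.24, 103.5 and 148.2 FPKM (rho 0.89). It was low in 4 libraries, while libraries 3, 4 and 1 formed a separate high set. Klf5, a Krüppel-like factor of both blastocyst lineages, was at 44.97, 32.5, 30.1, 68.1, 43.7, 46.8 and 60.0 FPKM (rho 0.50). Its 2 highest libraries were 3 and 1, and its whole range was narrow beside that of Id2. Tbx3, a T-box factor also found in the ICM, ranged from 8.10 FPKM in library 5 to 37.9 in library 6 (rho 0.11). Tead4, the DNA-binding partner of YAP, was at 13.4 in library 6 and 13.998 in library 1 and between 6.16 and 7.98 FPKM in the others (rho 0.32).

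Several defining factors were too low to rank. Cdx2, the factor that maintains trophectoderm identity, was at 4.201 FPKM in library 1 and between 0 and 1.12 in the other 6. Elf5, a factor of trophoblast stem cells, reached 1 FPKM in 1 library only, number 5, at 1.14. Gata2 stayed at or below 0.0326 FPKM in every library. The 1.12 FPKM of Cdx2 were in library 6, the lowest for Krt8, but values this low do not rank the libraries. In all, 14 listed trophectoderm genes had a mean under 5 FPKM, and 1 of them, the tight junction gene Marveld2, had a rho past 0.78 (0.90), at 0, 0.289, 0, 2.09, 0.840, 2.43 and 3.49 FPKM.

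The epithelial list had 4 followers of 15 and a median rho of 0.54. Cldn6, a claudin of early embryonic epithelia, was at 8.62, 14.3, 36.5, 91.3, 27.6, 91.0 and 164.2 FPKM (rho 0.82). Libraries 3, 4 and 1 were again its highest. Cgn (cingulin), which ties tight junctions to the cytoskeleton, was at 13.99, 21.8, 16.6, 19.3, 29.5, 24.3 and 25.6 FPKM (rho 0.79). It differed from the claudins in having its highest value in library 2 and a small spread, with a mean of 21.6 ± 5.40 FPKM (SD, n = 7). Cdh1 (E-cadherin), the adhesion molecule of all early blastomeres, was at 10.4, 20.1, 12.2, 12.8, 20.4, 39.1 and 31.0 FPKM (rho 0.86). Its top libraries were 4 and 1.

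Krt18, the filament partner of Krt8, was at 17.3, 10.1, 10.9, 51.1, 10.05, 60.1 and 294.5 FPKM. Its rho was 0.54 because library 6 ranked above 7, 5 and 2, with library 2 last, while its Pearson r with Krt8 was 0.87. So the 3 libraries with more Krt18 than the others were again 1, 4 and 3. Gja1, a gap junction channel subunit, lay between 298 FPKM in library 3 and 508 in library 6 (rho -0.57). F11r, a junctional adhesion molecule, had its highest value, 152 FPKM, in library 6, the lowest for Krt8 (rho 0.14).

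Among genes of fluid transport and the apical surface, 1 of 9 followed, with a median rho of 0.39. Slc9a3r1, an apical scaffold that binds ezrin and sodium-proton exchangers, was at 1.89, 1.35, 8.34, 4.30, 2.34, 11.8 and 15.3 FPKM (rho 0.82). Anxa2 and S100a10 form 1 membrane-binding complex. Anxa2 was at 29.5, 60.3, 56.7, 112, 43.9, 120.3 and 176 FPKM (rho 0.75), just short of the cut. S100a10 was at 49.8, 112, 164, 210.5, 64.5, 186 and 228 FPKM (rho 0.71). In both, libraries 1, 3 and 4 were the highest 3 and libraries 6 and 2 the lowest. Slc2a1, the main glucose transporter of the embryo, ranged from 33.0 to 77.8 FPKM with no order (rho 0.11).

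**Figure D2:**
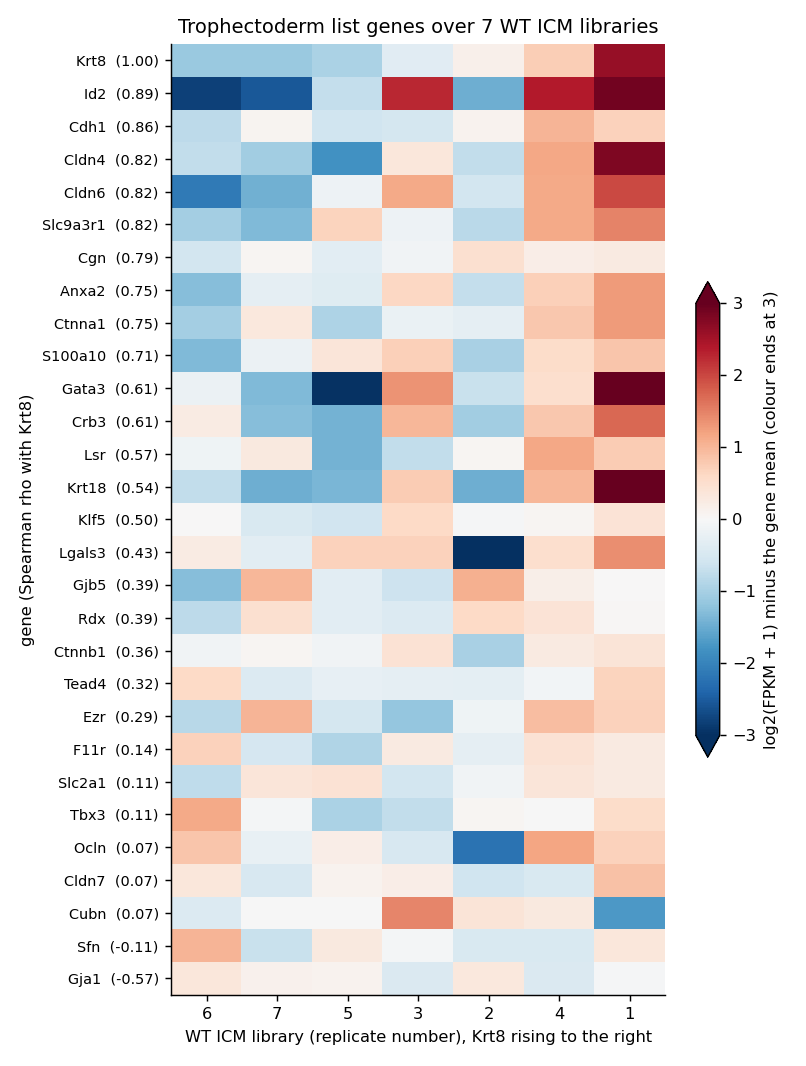
log2(FPKM + 1) minus the gene's mean for Krt8 and 28 of the 29 trophectoderm list genes (rows, with rho) in the 7 WT ICM libraries (columns, Krt8 rising to the right), with colours ending at 3. Libraries 4 and 1 are mostly red and library 6 mostly blue, library 3 is red for Id2, Cldn6, Gata3 and Krt18, and library 2 is blue for many of the same genes.

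Some of the trophectoderm genes also ranked the libraries alike among themselves. Over the 406 pairs of the 29 genes the median rho was 0.27, beside 0.04 over all pairs of the 3651 genes, and 41 pairs (10.1%) were at 0.78 or more, beside 4.02%. Of the 29 genes, 6 had no such partner (Cubn, F11r, Gja1, Ocln, Slc2a1 and Tbx3). Gata3 and Crb3, an apical polarity protein, had a rho of 1. Id2 and Cldn6 had a rho of 0.96, Gata3 and Klf5 0.96, and Gata3 and Cldn4 0.93. Genes are not independent and all pairs share the same 7 libraries.

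By library, number 1 was above the mean of the other 6 in 27 of the 29 trophectoderm genes and number 4 in 24. Over all 3651 genes these counts were 2230 and 2181, so both libraries also ran high in general. The median log2 difference of the 29 genes from the other 6 libraries was 0.81 for library 1 and 0.60 for library 4. It was -0.07 for library 3, -0.27 for 7, -0.33 for 2, -0.38 for 5 and -0.65 for 6. Over all 3651 genes this median was 0.15 for library 1, 0.11 for library 4 and between -0.12 and 0.08 for the others. Library 1 was the highest of 7 in 13 of the 29 genes (44.8%), beside 20.6% of all genes. So the list as a whole was high in 2 embryos, and the middle of the Krt8 order did not match the middle of the list. Library 2, with more Krt8 than library 3, had 9 genes above the others' mean and library 3 had 14. Over all 3651 genes these counts were 1800 and 1530. Without libraries 1 and 4 together, 1 of the 29 genes followed the order of the remaining 5 (Cubn, an endocytic receptor), beside 6.66% of all genes. The median rho of the 29 genes was then 0.10, beside -0.10 over all genes. The same rho is easier to reach over 5 libraries than over 7.

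Some library properties moved with Krt8 as well. Libraries 1 and 4 also had the most genes at 1 FPKM or more, 5718 and 5638, while the other 5 had 5110 to 5404. The rho of that number with Krt8 was 0.64 over 7 libraries. Summed over the Y-linked genes Uty, Ddx3y and Eif2s3y, FPKM marked libraries 1, 2, 4 and 7 as XY and 3, 5 and 6 as XX, so the 3 libraries with the most Krt8 were all XY. The sum over the trophectoderm list without Krt8 was 3141 FPKM in library 1 and 1644 to 2082 in the others (rho 0.43). The sum over 23 primitive endoderm genes was 338 FPKM in library 1 and 126 to 221 in the others, and the sum over blood, maternal and stromal genes was 20.03 to 43.0 FPKM with a rho of 0.14. The part of these in the order was not tested.

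Among the lineage genes of the ICM itself, the 12 pluripotency genes had a median rho of 0.04, beside 0.07 over all genes. Of these 12, 1 followed (8.33%, beside 3.26% of all genes) and 0 opposed (beside 2.25%). The follower was Stat3, the transducer of LIF signals, at 4.01, 5.98, 6.67, 5.43, 14.96, 12.4 and 14.3 FPKM (rho 0.79), which separated libraries 2, 4 and 1 from the rest. Nanog, a pluripotency factor of the epiblast, was at 350 FPKM in library 6 and between 113 and 210.6 in the others (rho -0.11). Sall4 lay between 52.7 and 95.5 FPKM (rho 0.07), Utf1 between 57.4 and 214 (rho 0) and Tdgf1, a Nodal co-receptor, between 9.34 and 135 (rho -0.07).

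Of 8 primitive endoderm genes, 0 followed and 0 opposed, and the median rho was 0.25. Gata6, which specifies this lineage, stayed between 17.2 and 31.9 FPKM (rho -0.39). Dab2, an endocytic adaptor that both trophectoderm and primitive endoderm make, was at 32.0, 7.69, 10.2, 113, 4.22, 44.4 and 204 FPKM (rho 0.46). Its high libraries, 1, 3 and 4, were those of Gata3 and Krt18, and library 2 was its lowest. Cited1, an X-linked transcriptional coactivator, ran the other way with 142 FPKM in library 6 and 6.27 in library 2 (rho -0.75). P4ha2, a collagen-modifying enzyme, ranged from 5.17 to 18.9 FPKM (rho 0.54).

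**Figure D3:**
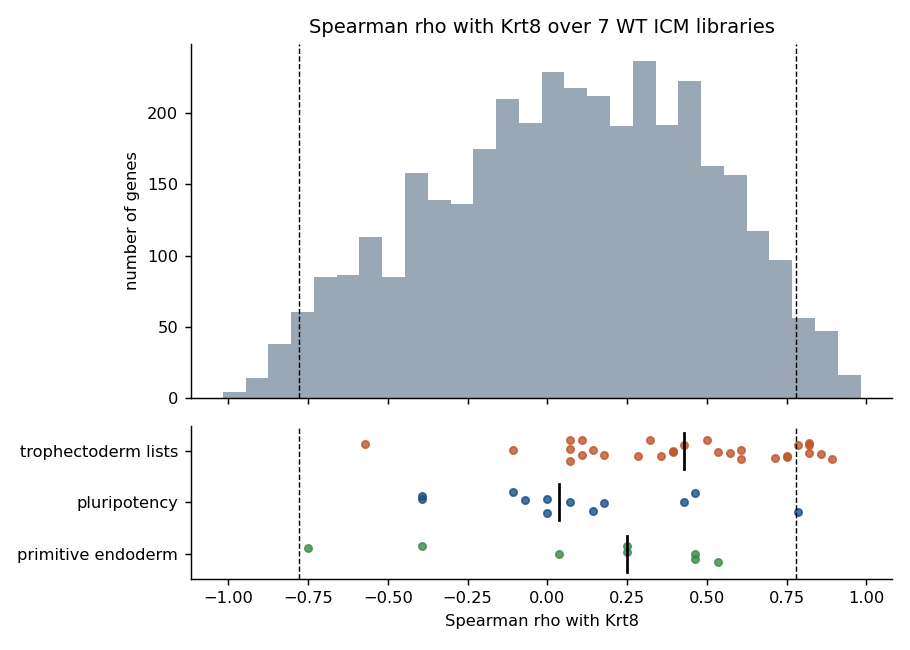
Histogram of Spearman rho with Krt8 for all genes whose mean reached 5 FPKM (top) and the rho of each trophectoderm, pluripotency and primitive endoderm gene (bottom, spread vertically for legibility, black bars at medians, dashed lines at 0.78 and -0.78). The trophectoderm median is 0.43, that of pluripotency genes 0.04 and that of primitive endoderm genes 0.25.

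The remaining lists had 0 to 2 followers and 0 or 1 opposer each, and some are so short that 1 gene is 16.7% of the Hippo list and 20% of the immediate early list, beside 3.26% of all genes that followed. Of 6 Hippo pathway genes, Mob1a, an activator of the LATS kinases, followed, at 12.3, 14.5, 12.8, 13.4, 15.7, 16.3 and 18.6 FPKM (rho 0.89). Of 34 DNA replication genes, Mcm5, a helicase subunit, and Orc1, the largest origin recognition subunit, followed (rho 0.82 and 0.86), and Pola1, the catalytic subunit of polymerase alpha, opposed (rho -0.86). Ndc80, a kinetochore gene, was the 1 follower of 25 mitotic genes (rho 0.79). Klf6 was the 1 follower of 5 immediate early genes (rho 0.86). Ndufv3 of complex I was the 1 opposer of 58 respiratory chain genes, whose median rho was -0.11. No gene of the glycolysis, p53 target, amino acid stress or blood lists passed in either direction, at 9, 11, 10 and 2 genes.

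Of the 119 followers, 78 were highest in library 1, the top of the order that chose them, beside 20.6% of all genes. The steepest followers outside the trophectoderm lists included small calcium- and sugar-binding proteins. Lgals1, a galectin, was at 3.45, 22.7, 16.8, 19.3, 86.4, 152 and 77.8 FPKM (rho 0.79). S100a6 was at 5.39, 5.49, 30.5, 14.3, 7.32, 70.1 and 73.9 FPKM (rho 0.86). Lgals1 was high in libraries 2, 4 and 1, and S100a6 in 4 and 1 with a lower value in library 5. Klf6 was at 1.68, 14.4, 16.0, 37.3, 28.4, 28.1 and 43.1 FPKM, with library 6 far below the other 6. Flot2, a scaffold protein of lipid rafts, was at 1.45, 2.66, 2.60, 10.2, 6.08, 9.74 and 15.9 FPKM (rho 0.86). Tdg, the glycosylase that removes oxidised methylcytosine, was at 4.06, 17.2, 5.65, 6.69, 14.3, 27.2 and 28.6 FPKM (rho 0.79). Fam129a (rho 0.86) and Fam107b (rho 0.86) each had libraries 4 and 1 as their highest, with Fam129a at 14.3 and 11.03 FPKM there and at most 5.03 elsewhere.

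Which genes followed depended on the marker that set the order. Ordered by Gata3 in place of Krt8, 119 genes followed as well, of which 14 were among the 119 of the Krt8 order, and ordered by Cldn4 110 did, of which 42 were. Without library 7 the Krt8 order of the remaining 6 had 229 followers at the same rho, of which 95 were among the 119. The same rho is easier to reach over 6 libraries than over 7, so the 2 counts do not compare directly.

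By Pearson r the genes most like Krt8 among the followers were Ggta1 (r 0.97), Maea (0.96), Mcm8 (0.96), Gna13 (0.95) and Plin3 (0.92). Ggta1, which makes the alpha-gal sugar, was at 2.32, 2.51, 1.56, 4.56, 4.69, 7.41 and 15.8 FPKM. Maea, part of an E3 ubiquitin ligase, was at 25.9, 25.2, 26.4, 25.4, 40.1, 44.8 and 66.3 FPKM, level in the 4 libraries with least Krt8 and higher in the 3 with most. Mcm8, a helicase of homologous repair, rose from 5.78 FPKM in library 6 to 14.5 in library 1 with a rho of 0.96. Gna13, a G-protein subunit, ranged from 17.7 to 45.3 FPKM and Plin3, a lipid droplet protein, from 33.8 to 61.3.

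Of the 82 genes that opposed the order, 62 were highest in library 6, which the rule favours because it had the least Krt8, beside 20.2% of all genes. H2-DMa, a subunit of the MHC class II peptide exchange factor, was at 30.4, 11.2, 11.6, 10.6, 8.23, 3.59 and 5.20 FPKM (rho -0.93). Sat1, an X-linked enzyme of polyamine breakdown, was at 4040, 1762, 1723, 1398, 2174, 1332 and 892 FPKM (rho -0.79). Ctsc, a lysosomal protease, was at 405 in library 6 and from 132 to 212 FPKM in the others (rho -0.82). In these 3 genes library 6 stood alone at the top, while the other libraries overlapped more closely.

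Among the other steep opposers, Nsmce4a and Hist1h3b ran down most of the order, while Etv6, Uchl1 and Pola1 each had 1 or more jumps. Nsmce4a, a subunit of the SMC5/6 complex, was at 26.4, 30.0, 28.1, 22.9, 20.4, 12.9 and 12.3 FPKM (rho -0.89). Hist1h3b was at 12.02, 9.80, 9.90, 9.03, 7.76, 5.99 and 4.75 FPKM (rho -0.96), though its reads may be shared with near-identical histone H3 genes. Etv6, an ETS repressor, was at 11.3, 16.3, 3.90, 4.69, 0.918, 2.04 and 3.02 FPKM (rho -0.79), high in libraries 6 and 7 only. Uchl1, a deubiquitinase, was at 93.5, 40.7, 73.7, 72.5, 14.8, 30.5 and 29.5 FPKM (rho -0.79), with libraries 6, 5 and 3, the XX libraries, at the top. Pola1, which like Sat1 is X-linked, was at 17.9, 8.95, 15.6, 8.21, 6.88, 6.91 and 6.91 FPKM. Ccdc55, Abhd6, Nkx2-9 and Elof1 completed the 12 steepest, each at rho -0.86.

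**Figure D4:**
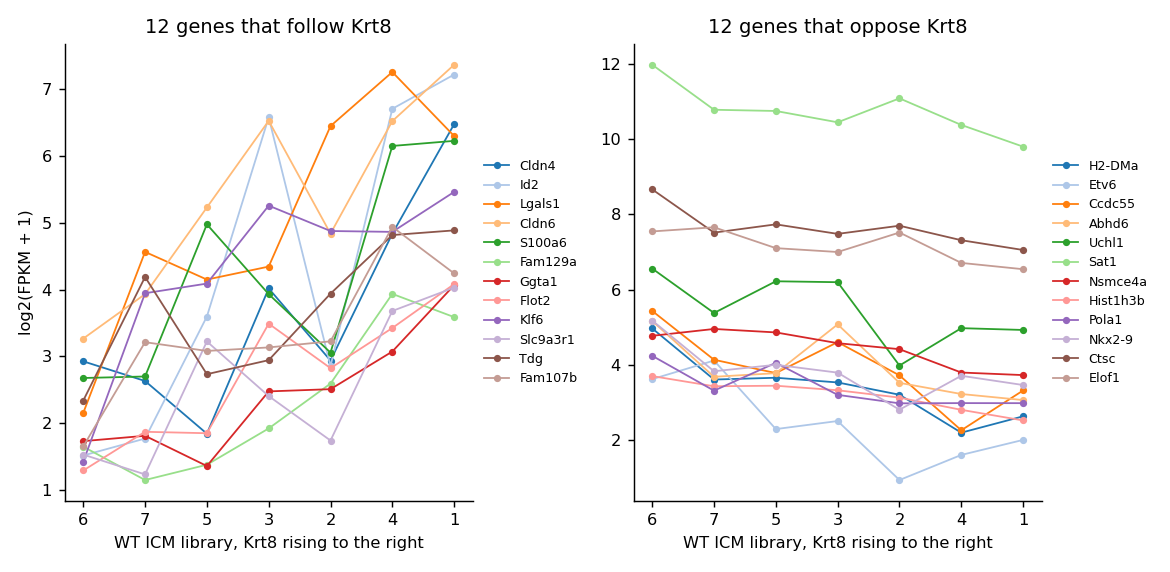
log2(FPKM + 1) of the 12 steepest genes that follow (left) and the 12 that oppose (right) the Krt8 order, 1 line per gene, over the WT ICM libraries with Krt8 rising to the right. Followers such as Id2 and Cldn6 dip at library 2, and opposers such as H2-DMa and Sat1 have their highest value in library 6.

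Level, gene length and chromosome were not part of the order. The median level was 14.7 FPKM for followers, 77.5 for opposers and 19.4 for all genes. The median gene span was 22946, 12933 and 19228 bases, over the 117, 76 and 3467 genes with a position. Of the followers with a position 0 of 117 were on the X chromosome, and of the opposers 4 of 76 (Fundc1, Naa10, Pola1 and Sat1, named after their positions were seen), beside 131 of all 3467. Given the number of detected genes as a partial correlation, 55 of the 119 followers and 37 of the 82 opposers stayed past the cut, and given sex 79 and 42 did. At the edge of the cut 33 followers stood at the lowest passing rho of 0.79 and 56 genes just outside at 0.75, with 26 opposers at -0.79 and 34 genes at -0.75. At the edge of the level filter Lmf2, with a mean of 5.002 FPKM, was just inside and Hccs, with 4.997, just outside.

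The KO ICMs, which the rule did not use, allow the same ranking by their own Krt8. Krt8 there was at 11.4, 17.6, 3.52, 1.13, 17.3, 31.8 and 12.3 FPKM in KO libraries 1 to 7. Gata3 was at 0.339, 1.83, 3.88, 0.404, 11.8, 4.23 and 2.92, and Cldn4 at 0.167, 0.350, 0.220, 0.174, 1.5, 0.498 and 2.50. Every KO library was below every WT library for Cldn4, whereas for Gata3 and Krt8 the ranges overlapped. With the KO libraries' own Krt8 order, 4 of the 119 WT followers (Esd, Ivd, Oxct1 and Pigu) had a rho of at least 0.78, or 3.36%, beside 4.11% of all genes. Of the 82 WT opposers, 3 (Exosc1, Med29 and Polr2h) had a rho of at most -0.78, or 3.66%, beside 1.29% of all genes. Of the 29 trophectoderm genes 1 passed, Gja1 at 0.86, which had a rho of -0.57 in WT. The follower count was 17 without KO library 6 (14.3%, beside 11.9% of all genes) and 1 without KO library 4 (0.84%, beside 2.74%). The opposer count was 5 without KO library 1 (6.10%, beside 2.38%).

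Single markers in KO ICM were tested by exact permutation over all pairings of the libraries, two-sided, with Benjamini-Hochberg adjustment over 14 tests on 7 genes. Gata3 with Krt8 had r = 0.47 (exact permutation p = 0.282) and rho = 0.50 (p = 0.267), both with an adjusted p of 0.985. Without the 2 libraries farthest from the median of Krt8, numbers 3 and 4, r was 0.46. Cldn4 had r = 0.38 (exact permutation p = 0.382, adjusted p = 1) and rho = 0.57 (p = 0.200, adjusted p = 0.985), and r was -0.21 without the same 2 libraries. For Cdh1, r was 0.20 and rho 0.50. For Id2, Cldn6, Cgn and Slc9a3r1, r lay between -0.27 and 0.12 and rho between -0.14 and 0, and 0 of the 14 relations passed, with a smallest unadjusted exact permutation p of 0.200. With 7 libraries a relation of this size cannot be told from none, so the WT pattern was not shown to be absent in KO. In KO ICM several of these genes ran with the number of detected genes, which was 3628 to 5136: rho was 0.89 for Cdh1, 0.86 for Cldn4 and Cldn6, 0.75 for Cgn and 0.68 for Gata3.

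Krt8, Gata3 and Cldn4 were also lower in KO than in WT ICM by limma on log2(FPKM + 1) with Benjamini-Hochberg adjustment over 5443 genes. Krt8 was at 61.4 ± 80.6 FPKM in WT and 13.6 ± 10.2 in KO (SD over 7 libraries a group). Its log2 change was -1.85 (SE 0.62, limma adjusted p = 0.0334). Gata3 was at 42.5 ± 65.4 and 3.63 ± 3.91 FPKM, a log2 change of -2.46 (SE 0.74, limma adjusted p = 0.0216). Cldn4 was at 21.7 ± 30.5 and 0.773 ± 0.895 FPKM, a log2 change of -2.97 (SE 0.58, limma adjusted p = 0.00300). The Krt8 call was lost without WT library 1, 2 or 4 or KO library 3 or 4, with limma adjusted p values of 0.0517 to 0.0759. Quantile normalization, which took out a shift of all genes, and median ratio scaling, which took out part of it, ended the calls of Krt8 (limma adjusted p = 0.134 and 0.121) and Gata3 (0.109 and 0.0553), and Cldn4 stayed called under both.

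That shift was large: the median log2 change over all 5443 genes was -0.65, and 1353 genes (24.9%) were called lower and 187 (3.44%) higher. The KO libraries had 3628 to 5136 genes at 1 FPKM or more, with numbers 1, 4 and 6 the lowest at 3628, 3642 and 3883, and the WT libraries 5110 to 5718. Without those 3 KO libraries, a choice made after seeing the data, the median change was -0.34 and 405 genes were called. Of the followers 10 were then lower (8.40%), of the opposers 1 and of the trophectoderm genes 3 (Tead4, Cldn4 and Cgn, 10.3%), beside 8.08% of all 3651 genes, with fewer libraries to test. Krt8 and Gata3 were no longer called (limma adjusted p = 0.0925 and 0.164), and Cldn4 was (0.0331). With all libraries, among the 3651 genes past the 5 FPKM filter, which was set on WT alone, the shares were 30.1% and 5.07%. Of the 119 followers, 53 were lower in KO (44.5%) and 1 higher (Lxn, an inhibitor of carboxypeptidases), with a median log2 change of -1.03. Of the 82 opposers, 8 were lower (9.76%) and 9 higher (10.98%), with a median of -0.10. Of the 29 trophectoderm genes, 15 fell (51.7%) and 0 rose, with a median of -1.20, and at an unadjusted limma p under 0.05 the counts were 18 and 0. After quantile normalization the calls over all genes were 351 lower and 357 higher and the median change 0.03, and after median ratio scaling they were 462 and 414 and -0.25. Under these, 11 and 15 followers were lower (9.24% and 12.6%), beside 9.37% and 10.2% of all 3651 genes. So were 6 and 5 trophectoderm genes (20.7% and 17.2%) and 5 and 2 opposers (6.10% and 2.44%). Higher were 10 and 28 of the 82 opposers, beside 7.45% and 10.9% of all 3651 genes. The trophectoderm genes called lower under all 3 scalings were Tead4, Cldn4, Cgn, F11r and Slc2a1. Without WT library 1, 946 genes were called in all, and 24 followers (20.2%) and 9 trophectoderm genes (31.0%) were lower, beside 18.7% of all 3651 genes. So without that library the followers' share was near that of all genes. Without WT library 4 the counts were 987, 30 (25.2%) and 8 (27.6%), beside 19.4%. The count of followers lower was 34 without WT library 2 (28.6%, beside 25.5% of all 3651 genes). It was 33 without KO library 4 or 6 (27.7%, beside 21.9% and 22.1%). That of opposers lower was 5 (6.10%) without WT library 4, 6 or 7 or KO library 1 or 4, beside 19.4% to 25.4% of all 3651 genes.

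Not every follower went down in KO. Cgn was at 21.6 ± 5.40 FPKM in WT and at most 11.2 in any KO library, below the lowest WT value of 13.99, with a log2 change of -1.92 (SE 0.42, limma adjusted p = 0.00495). Cdh1 had a log2 change of -1.12 (limma adjusted p = 0.0416). Id2 was at 8.29 to 145 FPKM in KO, within the WT range of 1.86 to 148, with a log2 change of 0.33 (SE 0.88, limma adjusted p = 0.788). Cldn6 and Slc9a3r1 had changes of -0.64 and -0.96 that did not pass (limma adjusted p = 0.413 and 0.181). S100a6 and Lgals1 had changes of 1.71 and 1.49 that did not pass either (0.0798 and 0.0792).

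**Figure D5:**
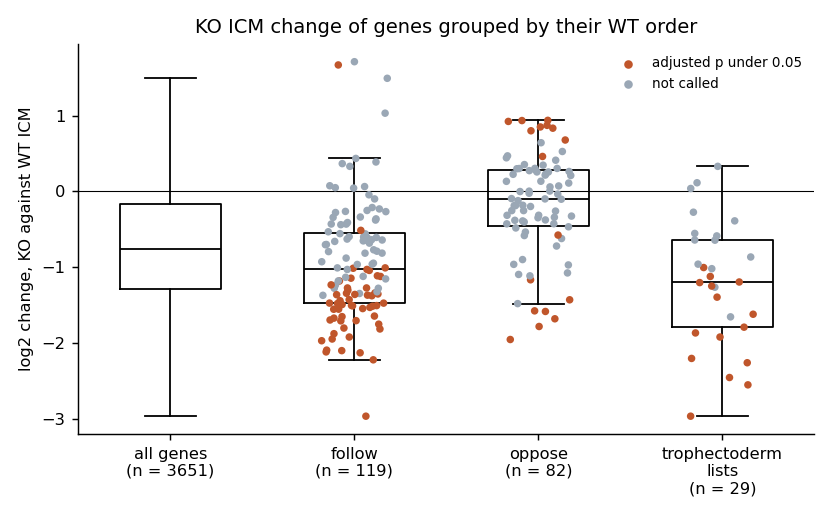
log2 change of KO against WT ICM for all genes, followers, opposers and trophectoderm list genes (boxes at the quartiles with the median, whiskers to 1.5 times the box height; points are genes, orange where the limma adjusted p is under 0.05). The medians are -0.76 over all 3651 genes, -1.03 for followers, -0.10 for opposers and -1.20 for the trophectoderm lists.

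At E5.5 the direction between genotypes was the opposite for the markers. WT epiblasts had Krt8 at 14.9, 12.6 and 18.05 FPKM and KO epiblasts at 718, 319 and 275. Gata3 was at 0.555, 0.129 and 0.596 FPKM in WT and 241, 88.8 and 112 in KO, and Cldn4 at 2.41, 2.03 and 2.79 in WT and 62.8, 23.3 and 37.8 in KO. Id2 was at 19.0 to 24.5 FPKM in WT and 783 to 959 in KO. All 3 KO libraries lay above all 3 WT libraries for 42 of the 119 followers (35.3%), 18 of the 82 opposers (21.95%) and 17 of the 29 trophectoderm genes (58.6%), beside 25.1% of all genes. They lay below all 3 WT libraries for 24 followers, 18 opposers and 5 trophectoderm genes, beside 836 (22.9%) of all 3651 genes. Cldn6 and Slc9a3r1 were among these lower genes, with KO at 20.8 to 182 and 50.7 to 58.3 FPKM and WT at 252 to 357 and 89.4 to 121. With 3 libraries a group no single gene can reach an exact permutation p under 0.10, so these are counts of ranges that do not overlap.

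Single E4.5 cells show where else the markers were read, in columns that may have been scaled separately. In 7 WT epiblast cells Krt8 was at 14.8 to 33.0 FPKM, Gata3 at 0.328 to 3.60 and Cldn4 at 1.47 to 58.1. The 1 WT primitive endoderm cell had Krt8 at 185 FPKM with Gata3 at 1.98 and Cldn4 at 1.62, and the 2 KO cells of that type had Krt8 at 54.2 and 174. In 3 KO epiblast cells Krt8 was at 85.1, 21.1 and 50.5 FPKM, with Gata3 at 1.47, 1.15 and 26.6 and Cldn4 at 75.4, 69.0 and 30.8. So 2 of the 3 primitive endoderm cells had more Krt8 than any epiblast cell, and the other lay within the KO epiblast range. WT ICM library 1 had all 3 at high levels, and library 2, next to library 4 in Krt8, had 11.2 FPKM of Gata3 and 6.66 of Cldn4.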

How the data were processed

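RNA was read by SMART-seq2 with Tn5 libraries on an Illumina HiSeq, per the labels' protocols, which does not mark strand. The deposited values are FPKM, scaled by the authors. STAR 2.7.3, Trim Galore 0.6.4 and the mm10 build stand, with no role given, among the tools in the submitters' processing notes. No source used here says which program computed the FPKM. FPKM give no depth, so the precision behind low values is unknown. The table has 7186 lines, of which 4 under 2 repeated names were left out, giving 7182 genes. The E4.5 columns may have been made separately.

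Spearman rho and Pearson r with Krt8 were computed on log2(FPKM + 1) with scipy 1.17.1 in Python 3.11.15. The test of KO against WT ICM was limma 3.58.1 under R 4.3.3 (trend, robust) on log2(FPKM + 1) over genes whose mean reached 1 FPKM, Benjamini-Hochberg, called under 0.05. The pseudocount of 1 understates changes of low genes. Replicates are separate embryos per the labels, and WT ICM libraries correlated at r = 0.83 to 0.95 (21 pairs, 0 identical). Both scripts were tested on simulated data. Promoters and positions came from RefSeq (GRCm38.p6), matched by symbol. The values of 1 listed trophectoderm gene are not reported here, nor drawn in the heat map.

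Named genes were the 3 markers, the 12 steepest followers and 12 steepest opposers by least-squares slope (without predicted, pseudogene, small RNA, ribosomal protein, Y-linked genes and Xist), list members past the cut, the 4 highest members of the trophectoderm, pluripotency and primitive endoderm lists, and the 5 followers with the highest r. The members and lists were chosen with earlier results of these data known. Alternatives were other ordering markers, scalings, pseudocounts, filters, Pearson r, partial correlation given detected genes, non-robust limma, leaving out each library and a replicate block. Chosen after seeing the data were tied low libraries, sex, autosomes only, and leaving out WT libraries 1 and 4 together or KO libraries 1, 4 and 6.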

Additional observations from a re-analysis of the deposited data

Results flagged for a closer look

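The values of named genes were looked at in 112 groups of 7 ICM libraries, where chance flags about 1 in 20 groups, and 7 single libraries stood far from the other 6. In WT ICM library 6, which has the least Krt8, Klf6 was at 1.68 FPKM where the others were at 14.4 to 43.1. In the same library Ctsc was at 405 FPKM where the others were at 132 to 212. In KO ICM library 1, which has the fewest detected genes, Cdh1 was at 1.93 FPKM (others 6.61 to 13.7). There Anxa2 was at 0.599 FPKM (others 18.1 to 68.6) and Nsmce4a at 61.3 (others 25.5 to 33.9). In KO ICM library 3, S100a10 was at 524 FPKM (others 69.4 to 143). In KO ICM library 6, Gata6 was at 4.46 FPKM (others 15.1 to 30.7).

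Cldn4 moved in opposite directions at the 2 stages. Every KO ICM library, at up to 2.50 FPKM, was below every WT ICM library, and every KO E5.5 epiblast, at 23.3 to 62.8 FPKM, was above every WT E5.5 epiblast. The difference between the stages was not tested.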

How the results depend on the processing

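The count of followers (119, or 3.26% of all genes) was 56 (1.53%) after quantile normalization and 74 (2.03%) after median ratio scaling. Filters of 1 and 20 FPKM gave 212 (3.75%) and 46 (2.56%). The count was 243 (6.66%) without libraries 1 and 4, and 86 to 229 (2.36% to 6.27%) when each library was left out. The same rho is easier to reach over 5 or 6 libraries, so these counts do not compare directly with those over 7. Opposers (82, or 2.25%) numbered 49 (1.34%) by Pearson r with a pseudocount of 5 and 129 (3.54%) given detected genes. They numbered 359 (9.83%) without libraries 1 and 4, and 78 to 112 (2.14% to 3.07%) when each was left out. Trophectoderm followers (6) were 2 in an order by the mean of 3 markers (Klf5 and Crb3), 3 after quantile normalization, 2 given detected genes (Id2 and Cldn6), 3 with the lowest libraries tied, 1 without libraries 1 and 4, and 2 to 8 when each was left out. Ordered by Gata3 or Cldn4 the follower counts were 119 and 110, of which 14 and 42 were among the 119.

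Between KO and WT ICM, 1540 genes were called, 708 after quantile normalization and 876 after median ratio scaling. Called lower were then 11 and 15 followers, 5 and 2 opposers and 6 and 5 trophectoderm genes, and 28 opposers were higher after median ratio scaling. The log2 change of Krt8 was -1.32 and -1.34 and that of Gata3 -1.71 and -2.05, none of them called. Leaving out each library gave 946 to 1875 calls and a Krt8 change of -2.11 to -1.41. Called lower were then 24 to 63 followers, 5 to 12 opposers and 8 to 18 trophectoderm genes, beside 18.7% to 37.1% of all 3651 genes. Without KO libraries 1, 4 and 6, 405 genes were called, with 10 followers, 1 opposer and 3 trophectoderm genes lower and 2 opposers higher, and the changes of Krt8 (-1.71) and Gata3 (-1.92) were not called. The replicate block gave 1221 calls, with 40 followers (33.6%) and 13 trophectoderm genes (44.8%) lower, beside 24.6% of all 3651 genes. WT and KO libraries of the same number were also compared by their deviations from the mean of each gene in their own group. These deviations correlated at -0.13 to 0.16, over 0.1 in 2 of 7 pairs, so the numbers were not taken to pair the embryos.

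In KO ICM, 1 to 17 followers passed the same rho when each library was left out (0.84% to 14.3%, beside 2.74% to 11.9% of all genes). So did 2 to 5 opposers (2.44% to 6.10%, beside 1.04% to 2.38%), and 6 given detected genes (7.32%, beside 5.01%). Of the single markers, r changed sign given detected genes for Cdh1 (-0.0949) and Slc9a3r1 (-0.28). With each library left out, r lay between -0.56 and 0.11 for Id2, -0.47 and 0.25 for Cldn6, -0.42 and 0.21 for Cgn and -0.47 and 0.57 for Slc9a3r1. Over the same libraries rho lay between -0.54 and 0.14 for Id2, -0.26 and 0.31 for Cldn6 and -0.31 and 0.43 for Cgn. Of 1181 values of single named genes under these settings, 0 of those past the cut changed sign and 352 moved across it. The causes were not tested. Values rest on 7 embryos and an unknown depth.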

Other observations

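Outside the lists, several genes ran closely with the Krt8 order and are named after their values were seen. Slc39a4, a zinc importer, had a rho of 0.96 and ranged from 48.6 to 152 FPKM, with a log2 change in KO ICM of -2.22 (limma adjusted p = 0.0163). Mccc2, an enzyme of leucine breakdown, also had a rho of 0.96, at 3.18 to 13.3 FPKM. Etfdh, which passes electrons from fatty acid oxidation to the respiratory chain, had a rho of 0.93 and a log2 change in KO ICM of -1.95 (limma adjusted p = 0.0119). The log2 change of Mccc2 in KO ICM, -1.18, did not pass (limma adjusted p = 0.0583).

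Some proteasome and translation genes passed the cut, in both directions, and are likewise named after their values were seen. Psmb7 and Psmb3, subunits of the proteasome core, had a rho of -0.96 and -0.93 at 391 to 590 and 859 to 1500 FPKM. Eif4e, the cap-binding factor, had a rho of -0.96 at 88.4 to 163 FPKM. Psmb5, another core subunit, followed with a rho of 0.86 at 426 to 645 FPKM, as did the translation factor Eif1a with a rho of 0.79 at 69.0 to 139 FPKM. Psmf1, Psmg3, Eif1, Eif2s2, Eif3e and Eif3i opposed as well, with a rho of -0.93 to -0.79. Of all genes 3.26% followed and 2.25% opposed. The share of these families that passed the cut was not counted, so the genes named here give no direction for the families. In KO ICM the rho of Psmb7 with Krt8 was 0.93 and that of Psmb3 0.64, and the difference from WT was not tested.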
